A study of Arabidopsis thaliana with 6 samples.

Results

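Class III peroxidases are secreted heme enzymes of plants. The 60 genes described here are PRX1 to PRX60 without PRX13, PRX43, PRX46 and PRX48, together with PRX62, PRX64, PRX71 and PRX72. The rule lists locus codes and uses no measured value, although earlier results of these data were known when it was set. The members make up 60 of the 33602 genes in the deposited table. The Arabidopsis family holds 73 genes by locus code, so 13 family genes are not members. RefSeq gives 59 of the 60 members a peroxidase product name. The exception is PRX60 (AT5G22410), which RefSeq lists as RHS18, root hair specific 18. Members lie on all 5 chromosomes, with 12, 13, 10, 12 and 13 of them on chromosomes 1 to 5, and their coding sequences run from 933 to 1119 bases.

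RNA was sequenced from whole seedlings of Arabidopsis thaliana, Columbia (Col) ecotype, and no mutant or transgenic line was used. The glutamate group (3 libraries) grew with 5 mM Glu as the sole nitrogen source, and the ammonium nitrate group (3 libraries) grew with 5 mM NH4NO3. Both groups shared half-strength Murashige and Skoog salts free of nitrogen, 0.5% sucrose, 2 days of cold and 12 days of growth at 22 °C under 16 h of light. Ammonium nitrate carries more nitrogen per molecule than glutamate, so the source and the amount of nitrogen cannot be told apart. The labels do not say that libraries came from separate cultures, so p-values measure the spread between these libraries, which may be technical.

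In the cell wall, class III peroxidases use hydrogen peroxide to oxidise phenolic compounds. The radicals so formed join monolignols into lignin and tie wall proteins such as extensins together, which stiffens the wall. The same enzymes can also run the other way and release reactive oxygen species, as in the oxidative burst of defence. Many members are known for expression in roots, where individual genes act in root hairs, in the vessels and in the lignin ring of the endodermis called the Casparian strip.

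Levels are in RPKM, a read number scaled to gene length and to library size. Averages stand as mean ± SD over n = 3 libraries. Each library held between 49520290 and 63424638 reads, as recovered from the deposited values. Per library, a single read on 1 kb of gene length came to between 0.0152 and 0.0211 RPKM. A gene of that length with 0 reads could have a true level of up to 3 reads, which is between 0.0455 and 0.0633 RPKM. Such limits cover counting error only. Log2 fold changes are those of log2(RPKM + 1), glutamate minus ammonium nitrate, so changes at low levels come out smaller than they are. They carry their standard error (SE) and an adjusted p from limma with Benjamini-Hochberg adjustment over 20032 genes, called at 0.05. Other folds are ratios of mean RPKM.

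Shoot and root markers were compared alongside, since whole seedlings mix both organs. All 10 shoot markers fell, and their summed level was 13500 to 15450 RPKM on glutamate and 30370 to 32540 RPKM on ammonium nitrate. Of 17 root markers 14 could be tested, of which 6 rose and 5 fell (median log2 fold change -0.04). The root markers with the smallest p, the potassium channel SKOR and the aquaporins TIP2;2 and TIP2;3, fell. The summed level of the root markers was 1788 to 1962 RPKM on glutamate and 2544 to 3138 RPKM on ammonium nitrate, of which the beta-glucosidase gene PYK10, named after its values were seen, gave most. No marker of either list was at 0 reads in any library. The part of organ share in the peroxidase results was not tested. In whole seedlings, fewer cells of a type and less RNA per cell cannot be told apart.

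On glutamate most peroxidase genes stood higher than on ammonium nitrate. Of the 60 members 55 averaged 1 RPKM or more across the 6 libraries and were tested. PRX40, PRX52 and PRX58 averaged under 1 RPKM on ammonium nitrate and reached that level only through the glutamate libraries, so the counts over these 55 describe them and are not evidence about the family. On glutamate 35 of the 55 rose, or 63.6%, against 35.0% of all genes tested. Another 8 fell, or 14.5%, against 36.8% of all genes tested. Called in either direction were 43 members, or 78.2%, against 71.8% of all genes. Their median log2 fold change was 0.50, while that of all genes tested was -0.02. With the filter removed 58 members were tested, of which 34 rose and 9 fell. A change of at least 2-fold on the log2(RPKM + 1) scale was met by 19 rising members, against 9.52% of all genes, and by 4 falling members, against 5.54% of all genes. The groups did not overlap for 41 members, or 74.5%, near the 76.1% of all genes.

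**Figure D1:**
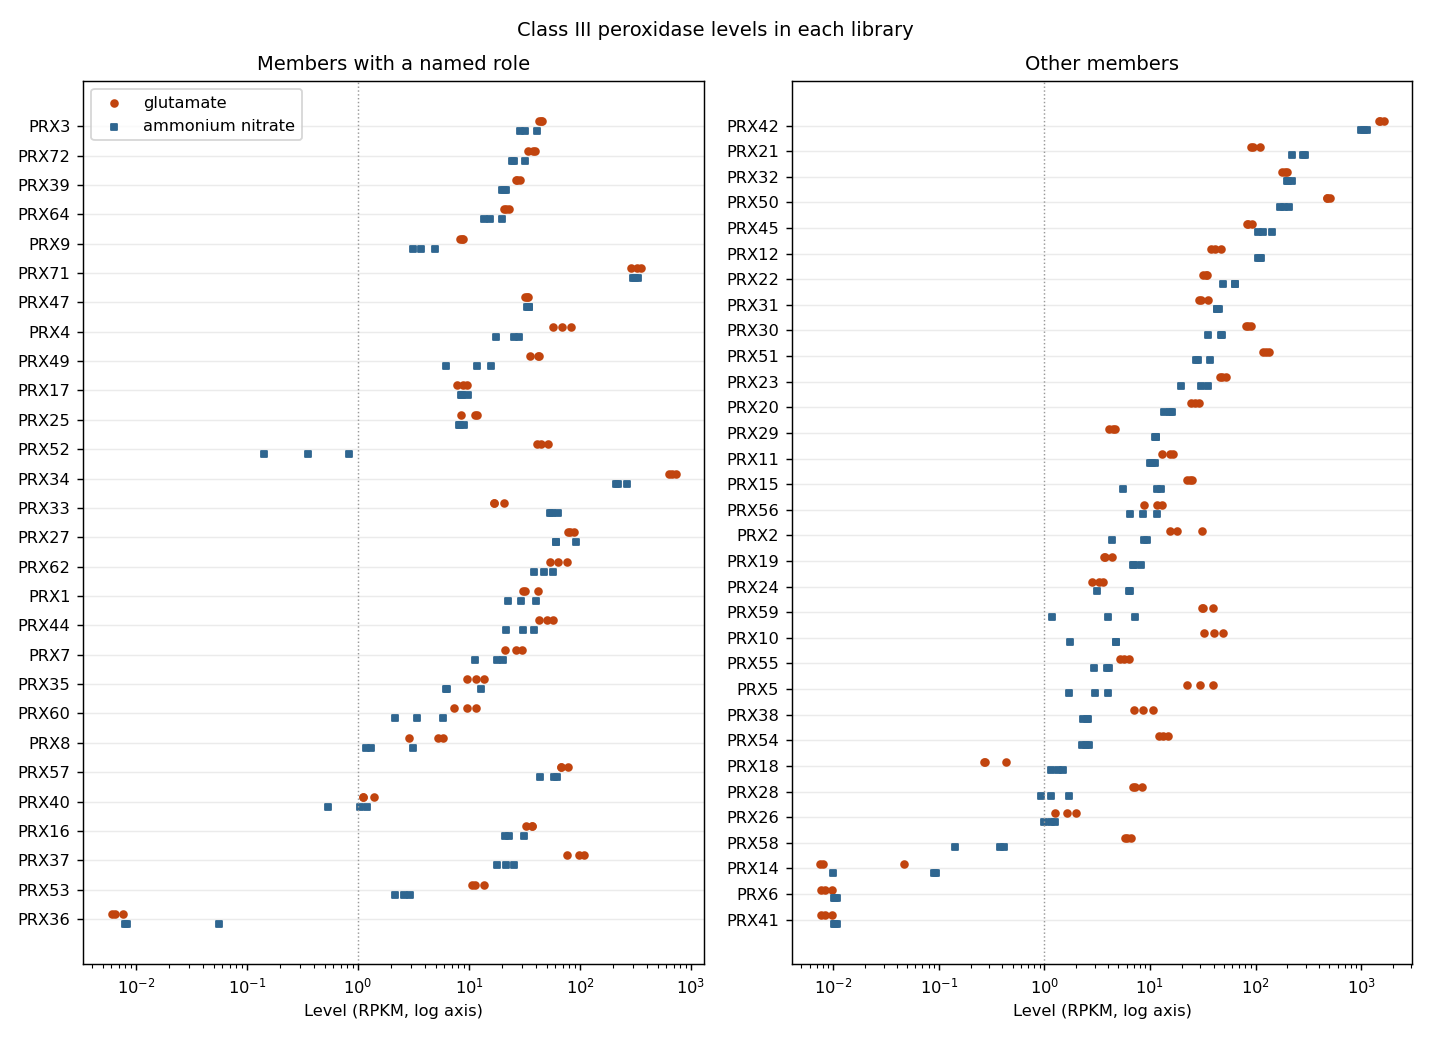
Level of all 60 members in each of the 6 libraries, in RPKM on a log axis. Red circles are glutamate libraries, blue squares are ammonium nitrate libraries, and the dotted line marks 1 RPKM. PRX42 is the most abundant member in both groups, and PRX6, PRX14, PRX36 and PRX41 lie at or near the value of 0 reads.

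The summed level of the 60 members was 4903, 4978 and 4845 RPKM on glutamate and 3590, 3228 and 3300 RPKM on ammonium nitrate, a ratio of 1.46. Every glutamate library stood above every ammonium nitrate library. PRX42 (AT4G21960, RefSeq symbol PRXR1) alone made up 31.7% ± 1.41 of that sum on glutamate and 31.7% ± 2.52 on ammonium nitrate. Its level was 1524, 1656 and 1485 RPKM on glutamate, against 1064, 997 and 1138 RPKM on ammonium nitrate. PRX42 rose (log2 fold change 0.54 ± 0.08 SE, adjusted p = 0.00036). PRX34 made up 13.9% ± 1.07 of the sum on glutamate and 6.87% ± 0.423 on ammonium nitrate. PRX21 moved the other way, with 2.01% ± 0.254 of the sum on glutamate and 7.88% ± 1.11 on ammonium nitrate.

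**Figure D2:**
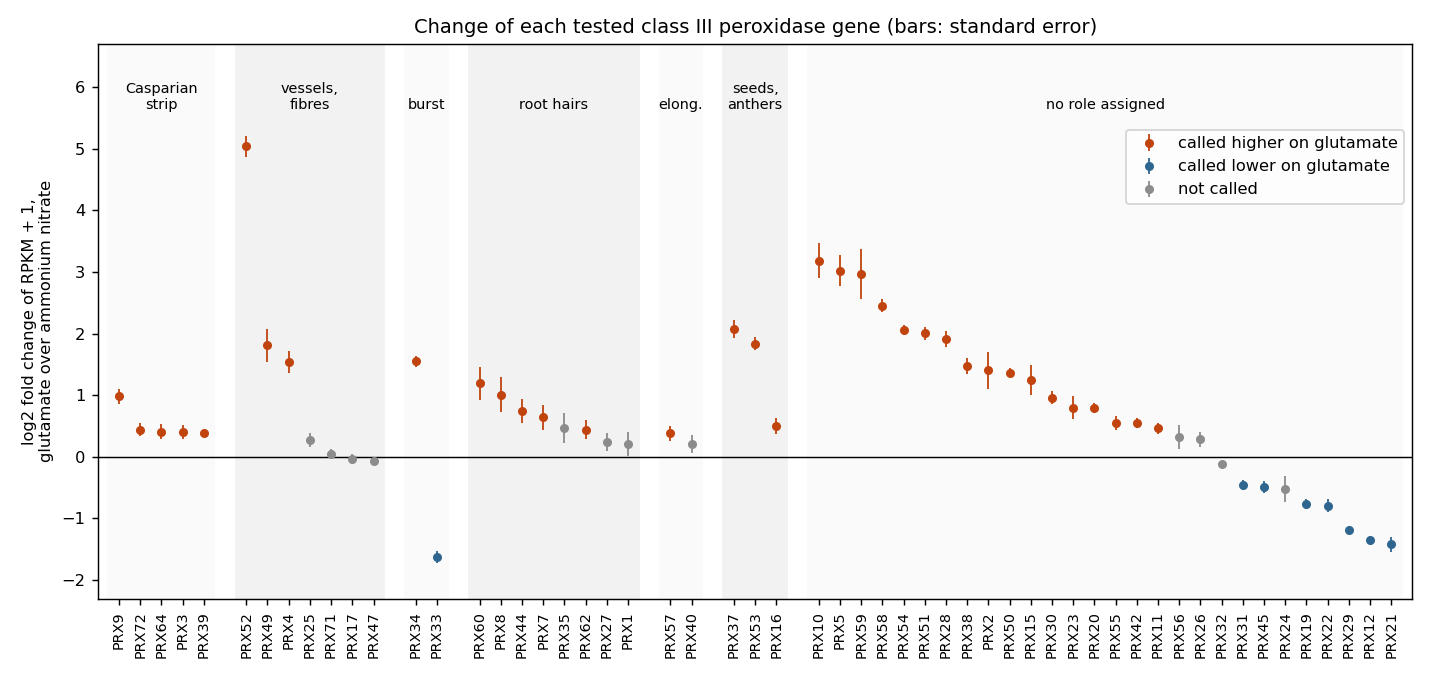
Log2 fold change of RPKM + 1, glutamate over ammonium nitrate, with its standard error, for the 55 tested members ordered by known role. "Burst" is the apoplastic oxidative burst and "elong." is root elongation. PRX52 has the highest value, 5.04, and PRX33 the lowest, -1.63.

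All 5 members known from the Casparian strip rose, against 35.0% of all genes tested, with log2 fold changes of 0.39 to 0.98. PRX3, PRX9, PRX39, PRX64 and PRX72 act together in laying down lignin between endodermal cells, the barrier that seals the apoplast of the root. PRX64 (AT5G42180), which sits at the strip itself, had 20.8, 22.9 and 21.5 RPKM on glutamate, against 19.8, 15.6 and 13.6 RPKM on ammonium nitrate. The groups of PRX64 did not overlap, though ammonium nitrate replicate 1 came close to the glutamate libraries. PRX9 (AT1G44970) moved most, with 8.56, 8.86 and 8.31 RPKM on glutamate, against 4.90, 3.13 and 3.70 RPKM on ammonium nitrate. The log2 fold change of PRX9 was 0.98 with an SE of 0.12 (adjusted p = 0.000148). PRX39 (AT4G11290) averaged 27.3 ± 1.04 RPKM on glutamate and 20.7 ± 0.688 RPKM on ammonium nitrate, PRX72 (AT5G66390) averaged 37.1 ± 2.76 and 27.2 ± 4.05 RPKM in the same order, and PRX3 (AT1G05260, RCI3) averaged 44.2 ± 1.69 and 33.7 ± 6.20 RPKM. MYB36 (AT5G57620), the transcription factor that switches on Casparian strip genes, rose as well, with 7.30 ± 0.198 RPKM on glutamate and 3.68 ± 0.174 RPKM on ammonium nitrate.

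Of the 7 members known from lignin of vessels, fibres and stems, 3 rose and 4 did not pass. The share that rose, 42.9%, compares with 35.0% of all genes tested, and 71.8% of all genes were called in either direction. PRX52 (AT5G05340), which acts in the lignin of fibres, was close to silent on ammonium nitrate and well expressed on glutamate. It had 51.0, 44.5 and 41.2 RPKM on glutamate, against 0.141, 0.354 and 0.831 RPKM on ammonium nitrate. In reads these were 9984 over the glutamate libraries and 78 over the ammonium nitrate libraries. PRX52 was 103-fold higher by mean RPKM, or 184-fold without ammonium nitrate replicate 3, and its log2 fold change was 5.04 with an SE of 0.16 (adjusted p = 1.37e-07). PRX49 (AT4G36430) rose to 42.5, 41.5 and 35.2 RPKM on glutamate, against 11.7, 6.26 and 15.9 RPKM on ammonium nitrate. PRX4 (AT1G14540) rose to 83.1, 69.2 and 57.0 RPKM on glutamate, against 28.0, 17.4 and 25.3 RPKM on ammonium nitrate. For both genes all glutamate libraries stood above all ammonium nitrate libraries. PRX71 (AT5G64120), the most abundant of this group, had 324 ± 32.5 RPKM on glutamate and 314 ± 14.8 RPKM on ammonium nitrate and did not pass (adjusted p = 0.641). PRX47 averaged 33.0 ± 0.733 RPKM on glutamate and 34.4 ± 0.802 RPKM on ammonium nitrate, PRX17 averaged 8.70 ± 0.876 and 8.96 ± 0.679 RPKM in the same order, and neither passed. PRX25 (adjusted p = 0.0548) had 11.9, 11.3 and 8.47 RPKM on glutamate, against 8.35, 8.05 and 8.92 RPKM on ammonium nitrate, and it passed without glutamate replicate 3 (adjusted p = 0.00181).

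The sequence upstream of PRX52 is shown because this member changed most. It is the 250 bases before the annotated gene start in RefSeq TAIR10.1, chr5:1580876-1581125, read 5′ to 3′ on the minus strand of the gene, with capitals at a match to ACCTAAC, known from promoters of phenylpropanoid genes, on the opposite strand.
PRX52: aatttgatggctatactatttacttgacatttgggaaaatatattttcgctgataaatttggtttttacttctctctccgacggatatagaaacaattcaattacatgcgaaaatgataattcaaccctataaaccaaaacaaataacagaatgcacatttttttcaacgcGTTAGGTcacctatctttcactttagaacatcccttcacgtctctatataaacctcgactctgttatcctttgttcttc

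PRX33 and PRX34, next to each other on chromosome 3, moved in opposite directions. Both are known from the apoplastic oxidative burst, in which wall peroxidases produce hydrogen peroxide after contact with a pathogen, and RefSeq calls them PRXCA and PRXCB. PRX34 (AT3G49120) had 640, 670 and 731 RPKM on glutamate, against 264, 212 and 221 RPKM on ammonium nitrate. PRX33 (AT3G49110) had 20.7, 16.8 and 16.9 RPKM on glutamate, against 63.3, 54.2 and 56.5 RPKM on ammonium nitrate. The groups of neither gene overlapped. PRX34 rose (log2 fold change 1.55, SE 0.09, adjusted p = 2.27e-06) and PRX33 fell (log2 fold change -1.63, SE 0.09, adjusted p = 1.79e-06). The log2 ratio of PRX33 to PRX34, taken per library from RPKM + 1, averaged -5.16 ± 0.245 on glutamate and -1.98 ± 0.0542 on ammonium nitrate (p = 0.1 in an exact two-sided permutation test, which can go no lower with 3 libraries against 3). The coding sequences of the pair are 90.4% identical with a longest shared run of 111 bases, and the deposited share of multiply mapped reads is 9.02e-05 for PRX33 and 9.32e-05 for PRX34.

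The part of the coding sequence where the pair differs most is shown to make clear how reads of both genes can be told apart. Each line holds 60 coding bases from RefSeq TAIR10.1, with capitals at the 16 bases that differ, from base 714 to 773 of the PRX33 and 711 to 770 of the PRX34 coding sequence.
PRX33: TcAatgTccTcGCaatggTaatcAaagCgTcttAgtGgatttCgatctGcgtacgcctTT
PRX34: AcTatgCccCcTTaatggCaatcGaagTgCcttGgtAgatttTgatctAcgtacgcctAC

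Over the 250 bases before the annotated starts, 48.3% of aligned bases of PRX33 and PRX34 were identical. This end-to-end alignment can miss stretches shared at shifted positions, so it does not show that the windows are unrelated. These windows are shown since the neighbours moved in opposite directions. They lie on the plus strand at chr3:18200337-18200586 for PRX33 and chr3:18207401-18207650 for PRX34 (RefSeq TAIR10.1), and none of the 7 motifs searched for is in either.
PRX33: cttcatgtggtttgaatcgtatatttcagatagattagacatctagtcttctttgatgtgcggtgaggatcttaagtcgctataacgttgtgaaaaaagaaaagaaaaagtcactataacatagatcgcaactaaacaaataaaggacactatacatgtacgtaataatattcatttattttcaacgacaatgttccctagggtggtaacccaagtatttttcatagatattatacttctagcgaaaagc
PRX34: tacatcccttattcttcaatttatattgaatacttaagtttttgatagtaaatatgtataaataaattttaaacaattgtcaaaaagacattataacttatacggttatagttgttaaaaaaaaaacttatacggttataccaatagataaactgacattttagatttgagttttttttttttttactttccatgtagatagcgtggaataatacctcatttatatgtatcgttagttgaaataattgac

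Of the 8 members known from root hairs, the tubes by which root epidermal cells reach into the medium, 5 rose and 3 did not pass. The share that rose, 62.5%, compares with 35.0% of all genes tested, and 71.8% of all genes were called in either direction. PRX60 (AT5G22410) had 7.28, 9.65 and 11.7 RPKM on glutamate, against 3.37, 5.80 and 2.14 RPKM on ammonium nitrate, without overlap (log2 fold change 1.19, SE 0.27, adjusted p = 0.00401). PRX44 (AT4G26010), needed for root hair growth, had 42.7, 50.6 and 57.4 RPKM on glutamate, against 30.6, 38.3 and 21.4 RPKM on ammonium nitrate, also without overlap. PRX8 (AT1G34510) rose to 2.89, 5.27 and 5.86 RPKM on glutamate, against 1.32, 3.10 and 1.17 RPKM on ammonium nitrate, where the groups overlapped. PRX7 (log2 fold change 0.64) and PRX62 (log2 fold change 0.44) rose by less. PRX7 did not pass without glutamate replicate 2 or 3 (adjusted p = 0.0513 and 0.0683). PRX62 did not pass without any one of 4 of the libraries (adjusted p = 0.0687 to 0.115), the exceptions being glutamate replicate 3 and ammonium nitrate replicate 1. Without glutamate replicate 2 the group thus had 3 rising members. PRX27 (82.4 ± 5.44 RPKM on glutamate, 70.9 ± 17.7 on ammonium nitrate), PRX35 (11.6 ± 2.10 and 8.47 ± 3.82) and PRX1 (34.7 ± 5.89 and 30.6 ± 8.92) did not pass. Each of these 3 passed as higher on glutamate without 1 ammonium nitrate library, replicate 1 for PRX27 and replicate 2 for the other 2. The root hair regulators RHD6, RSL2 and RSL4, which drive hair growth, all rose, by log2 fold changes of 1.32, 0.83 and 0.65. Of all 9 regulators listed, among them MYB36, UPB1 and the lignin regulators, 7 rose (77.8%), against 35.0% of all genes tested.

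Most root hair members shared an order of the ammonium nitrate libraries. Replicate 2 was the highest ammonium nitrate library for 6 of the 8 and replicate 3 the lowest for 6 of the 8. Over all genes tested replicate 2 was highest for 31.7% and replicate 3 lowest for 29.6%, and over the tested members for 21.8% and 45.5%. PRX35, for example, had 12.9 RPKM in ammonium nitrate replicate 2 and 6.37 and 6.17 RPKM in the other 2. PRX27 and PRX62 went the other way, with their highest value in replicate 1 and their lowest in replicate 2. Among the glutamate libraries, replicate 3 was highest for 5 of the 8 and replicate 1 lowest for 5 of the 8. The same shares were 31.98% and 33.75% over all genes tested, and 29.09% and 25.45% over the tested members. The coefficient of variation between libraries had a median over the tested members of 10.1% on glutamate and 16.9% on ammonium nitrate, against 5.50% and 6.58% over all genes tested. Members thus varied more between libraries than the median gene did in both groups.

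**Figure D3:**
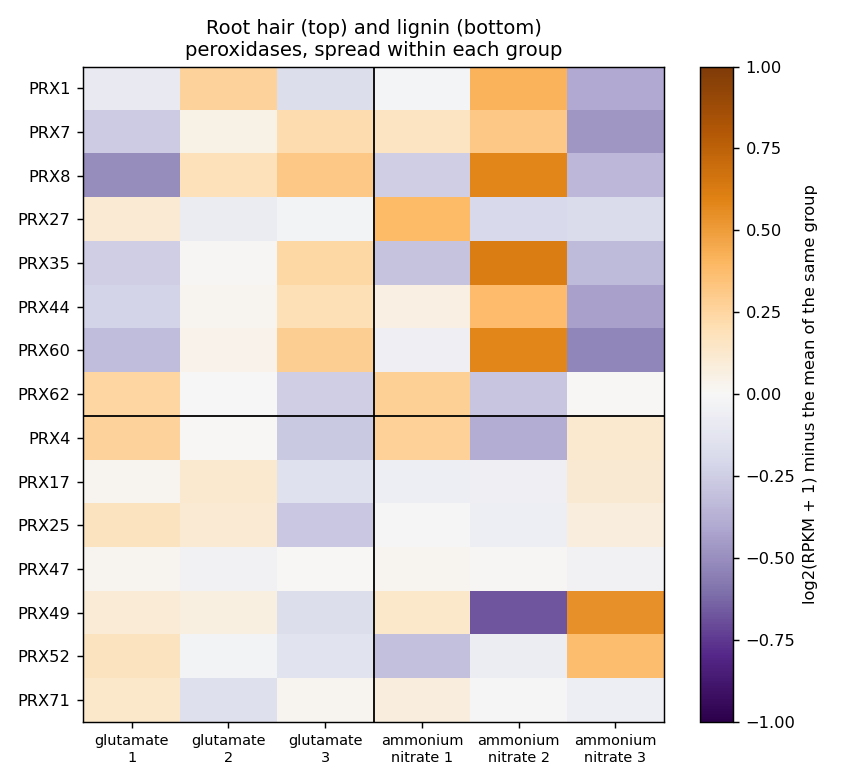
Deviation of each library from the mean of its own group, in log2(RPKM + 1), for 8 root hair members (top) and 7 lignin members (bottom), glutamate libraries left and ammonium nitrate libraries right. Values run from -0.67 (PRX49) to 0.62 (PRX35), both in ammonium nitrate replicate 2.

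UPB1 is a repressor that limits peroxidase expression where root cells begin to elongate. Of the 2 members grouped here under UPB1, which need not be all of its targets, PRX57 passed and PRX40 did not. PRX57 (AT5G17820) had 67.9, 67.7 and 77.8 RPKM on glutamate, against 61.9, 58.1 and 44.0 RPKM on ammonium nitrate, and lost its call without glutamate replicate 3 (adjusted p = 0.0707). PRX40 (AT4G16270), which also acts in the anther, averaged 1.21 ± 0.166 RPKM on glutamate and 0.927 ± 0.349 RPKM on ammonium nitrate. UPB1 itself had 23.4 ± 0.651 RPKM on glutamate and 19.9 ± 3.38 RPKM on ammonium nitrate and did not pass (adjusted p = 0.065).

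Of 4 members known from seeds or from organ growth 3 were tested, and all 3 rose, against 35.0% of all genes tested. PRX37 (AT4G08770), which restrains growth when overexpressed, had 110, 97.0 and 77.0 RPKM on glutamate, against 21.6, 18.1 and 25.2 RPKM on ammonium nitrate (log2 fold change 2.08 ± 0.15, SE, adjusted p = 5.48e-06). PRX53 (AT5G06720) had 10.6, 11.3 and 13.5 RPKM on glutamate, against 2.62, 2.16 and 2.97 RPKM on ammonium nitrate. PRX16 (AT2G18980) averaged 35.7 ± 2.34 RPKM on glutamate and 25.2 ± 5.41 RPKM on ammonium nitrate. PRX36 (AT3G50990), a gene of the seed coat, had 0 reads over the glutamate libraries and 3 over the ammonium nitrate libraries and was not tested.

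The other 32 members have no role assigned here, and 28 of them were tested. Of the 28, 17 rose (60.7%, against 35.0% of all genes tested) and 7 fell (25%, against 36.8%). By ratio of means PRX58, PRX10, PRX5 and PRX59 were the highest of these. PRX58 (AT5G19880) had 6.66, 5.82 and 6.04 RPKM on glutamate, against 0.381, 0.144 and 0.411 RPKM on ammonium nitrate, or 19.8-fold. PRX10 (AT1G49570) had 40.2, 48.7 and 32.5 RPKM on glutamate, against 1.74, 4.82 and 4.77 RPKM on ammonium nitrate, or 10.7-fold. In both genes the lowest glutamate library stood above the highest ammonium nitrate library. PRX5 (AT1G14550) had 39.4, 30.0 and 22.3 RPKM on glutamate, against 3.05, 1.69 and 4.01 RPKM on ammonium nitrate, or 10.5-fold. PRX59 (AT5G19890) had 31.4, 39.8 and 31.7 RPKM on glutamate, against 1.17, 7.27 and 4.01 RPKM on ammonium nitrate, a ratio of 8.26, which was 13.2 when ammonium nitrate replicate 2 was left out. These 4 genes also did not overlap between groups, and their adjusted p ran from 5.05e-07 for PRX58 to 0.000264 for PRX59.

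Below these, PRX28 (5.88-fold), PRX54 (5.48-fold), PRX51 (4.08-fold), PRX38 (3.53-fold) and PRX50 (2.58-fold) rose at widely different levels. PRX50 (AT4G37520), the third most abundant member on glutamate, had 472, 504 and 478 RPKM there, against 206, 172 and 187 RPKM on ammonium nitrate. PRX28 (AT3G03670) by contrast had 8.40, 6.85 and 7.21 RPKM on glutamate, against 1.17, 0.927 and 1.72 RPKM on ammonium nitrate. PRX15, PRX30, PRX20, PRX23, PRX55, PRX11 and PRX42 rose by log2 fold changes of 0.47 to 1.25, and none of their groups overlapped.

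The members that fell were, beside PRX33, PRX21, PRX12, PRX29, PRX22, PRX19, PRX45 and PRX31. PRX21 (AT2G37130) had 93.6, 90.3 and 111 RPKM on glutamate, against 294, 284 and 219 RPKM on ammonium nitrate. PRX12 (AT1G71695) had 46.9, 38.2 and 41.2 RPKM on glutamate, against 110, 112 and 106 RPKM on ammonium nitrate. PRX29 (AT3G17070) had 4.47, 4.68 and 4.08 RPKM on glutamate, against 11.5, 11.3 and 11.2 RPKM on ammonium nitrate. The log2 fold changes of these 3 genes were -1.42 ± 0.12, -1.36 ± 0.07 and -1.19 ± 0.06 (SE, adjusted p = 1.59e-05, 1.45e-06 and 1.45e-06), and their groups lay well apart. PRX19 (log2 fold change -0.77), PRX45 (-0.49) and PRX31 (-0.46) fell by less, also without overlap. PRX32 (AT3G32980), with 190 ± 10.1 RPKM on glutamate and 207 ± 11.8 RPKM on ammonium nitrate, and PRX56, PRX26 and PRX24 did not pass. PRX56 passed as higher without ammonium nitrate replicate 1 (adjusted p = 0.0284) and PRX26 without glutamate replicate 2 (adjusted p = 0.0207). PRX24 (adjusted p = 0.0534) had 2.82, 3.28 and 3.62 RPKM on glutamate, against 6.29, 6.48 and 3.16 RPKM on ammonium nitrate, and it passed as lower without ammonium nitrate replicate 3 (adjusted p = 0.000327).

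The other 5 members were too low to test. PRX6 and PRX41 had 0 reads in all 6 libraries. PRX14 had 2 reads over the glutamate libraries and 8 over the ammonium nitrate libraries, and its near copy PRX15 had 5341 and 1845. PRX18 (AT2G24800) had 55 reads over the glutamate libraries and 192 over the ammonium nitrate libraries, at 0.325 ± 0.096 and 1.33 ± 0.179 RPKM, and its groups did not overlap.

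Members that sit side by side in the genome were compared as pairs, to see whether neighbours moved alike. Not all are close copies, as coding identity was 55.0% for PRX2/PRX3 and 56.0% for PRX58/PRX59. There were 10 pairs with consecutive numbers and neighbouring locus codes. Both genes rose in 6 pairs, where 63.6% of single tested members rose. The 6 include PRX2/PRX3, although the call of PRX2 is uncertain. In 2 pairs, PRX33/PRX34 and PRX22/PRX23, one gene rose and one fell. The log2 ratio within the pair did not overlap between groups in 8 of the 10 pairs, where 76.1% of single genes tested did not overlap (p = 0.1 for each in the exact two-sided permutation test, its lower limit here, and 0.125 with Benjamini-Hochberg adjustment over the 10 pairs). Of these 8, PRX14/PRX15 shows only the change of PRX15, since PRX14 was at or near 0 reads, and PRX1/PRX2 and PRX2/PRX3 rest on an uncertain split of reads between PRX1 and PRX2. PRX22 (AT2G38380) had 34.1, 34.4 and 31.7 RPKM on glutamate, against 64.2, 49.0 and 64.0 RPKM on ammonium nitrate. PRX23 (AT2G38390) had 52.9, 46.5 and 48.4 RPKM on glutamate, against 35.7, 19.8 and 30.7 RPKM on ammonium nitrate. PRX23 was thus the higher gene of the pair in all glutamate libraries and PRX22 in all ammonium nitrate libraries. Their coding sequences are 90.6% identical and no multiply mapped reads are listed for either.

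The stretch of 60 coding bases where PRX22 and PRX23 differ most, bases 108 to 167 in both (RefSeq TAIR10.1), is shown with capitals at the 14 bases that differ.
PRX22: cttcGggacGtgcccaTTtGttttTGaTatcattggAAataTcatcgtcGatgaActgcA
PRX23: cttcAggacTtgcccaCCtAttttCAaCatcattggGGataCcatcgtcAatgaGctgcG

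Among pairs that rose together some neighbours still differed in size of change. The log2 ratio of PRX4 to PRX5 was 1.18 ± 0.129 on glutamate and 2.67 ± 0.243 on ammonium nitrate, as PRX5 rose by more. The log2 ratio of PRX50 to PRX51 was 1.93 ± 0.0976 on glutamate and 2.57 ± 0.138 on ammonium nitrate, and that of PRX37 to PRX38 was 3.29 ± 0.0614 on glutamate and 2.69 ± 0.165 on ammonium nitrate. For PRX53/PRX54 and PRX58/PRX59 the log2 ratio overlapped between groups (p = 0.4 and 0.6 in the exact two-sided permutation test). The difference in log2 ratio, glutamate minus ammonium nitrate, was -0.22 for PRX53/PRX54 and -0.51 for PRX58/PRX59. The value for PRX58/PRX59 turned to 0.66 with a pseudocount of 0.1 RPKM and to 0.0489 without ammonium nitrate replicate 1.

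**Figure D4:**
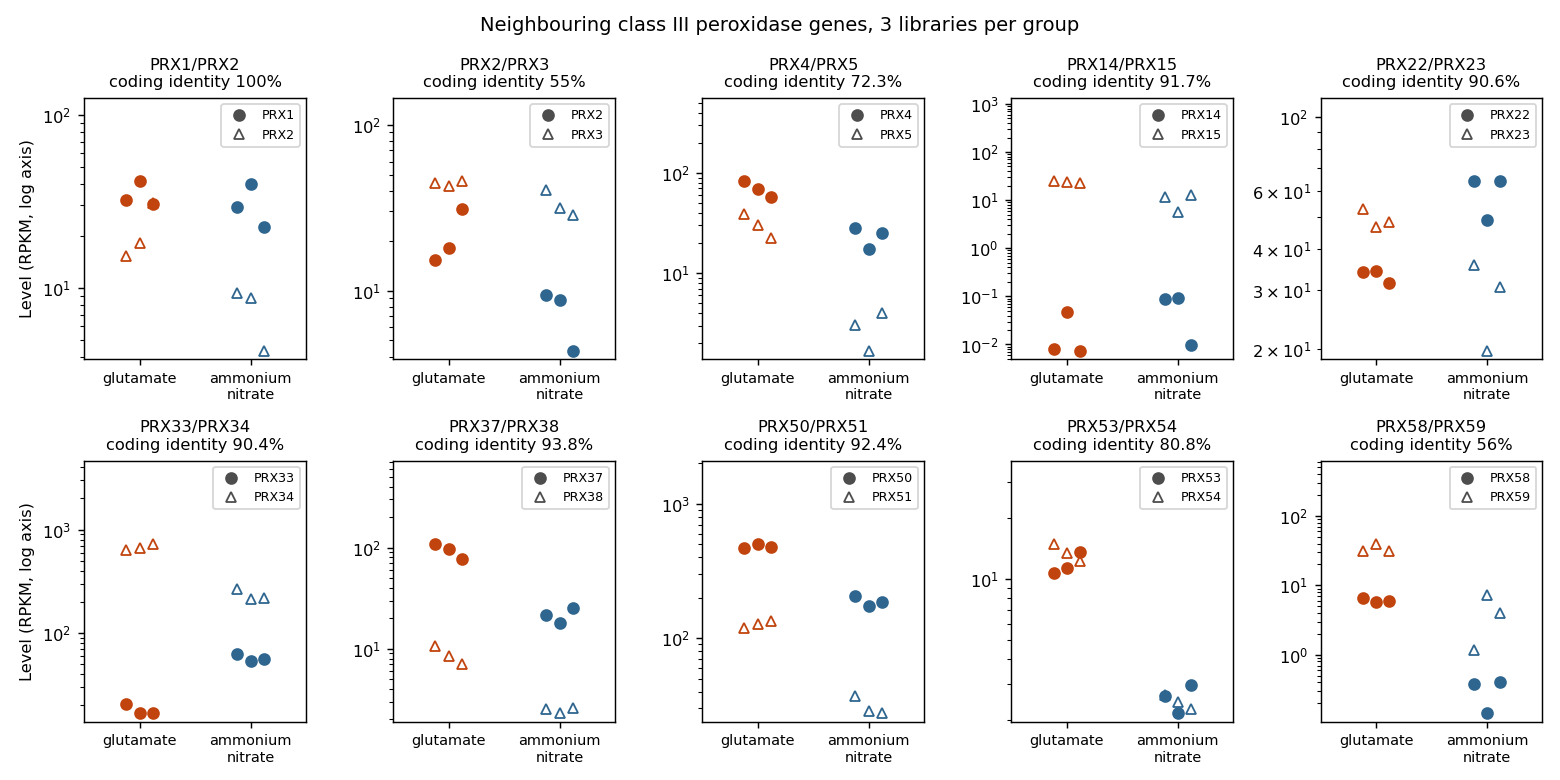
Level of both genes of each neighbouring pair in 3 glutamate libraries (red, left) and 3 ammonium nitrate libraries (blue, right), in RPKM on a log axis. Filled circles are the first gene and open triangles the second. In PRX33/PRX34 and PRX22/PRX23 one gene is higher and the other lower on glutamate.

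PRX1 and PRX2 cannot be separated with confidence. Their coding sequences are 100% identical over all 978 bases, and the deposited share of multiply mapped reads is 0.998 for both. The values listed for PRX2 (AT1G05250) were 15.4, 18.1 and 31.1 RPKM on glutamate, against 9.35, 8.76 and 4.35 RPKM on ammonium nitrate. No source used here says how the authors' counting split shared reads, so the call of PRX2 as higher (adjusted p = 0.00333) is uncertain. The first 60 coding bases, the same in both genes (RefSeq TAIR10.1), are shown as an example.
PRX1: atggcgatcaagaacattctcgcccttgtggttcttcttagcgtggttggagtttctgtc

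Over all 10 pairs, coding identity ran from 55.0% (PRX2/PRX3) to 100% (PRX1/PRX2), while identity over the 250 upstream bases ran from 41.5% to 52.7%. The fixed windows were aligned end to end, so stretches shared at shifted positions can be missed. Low values therefore do not show that windows are unrelated. The windows of PRX50 and PRX51, for example, hold a common stretch at different distances from the start. The lowest upstream value belonged to PRX1/PRX2. Multiply mapped reads were listed for 7 members, with shares of 0.000171 or less in the 5 other than PRX1 and PRX2.

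Upstream windows of all members were searched on both strands for 7 short motifs. The windows of PRX20, PRX36 and PRX40 overlap another annotated gene. TTGACC as well as its variant TTGACT belong to WRKY factors. The motif TGACG is known for bZIP factors of the TGA class, and CACGTG is known for other bZIP factors. The phenylpropanoid motifs were ACCTACC, its variant ACCAACC and the form ACCTAAC shown for PRX52. No motif lies whole within another, though ends can overlap. TTGACC or TTGACT was in the window of 18 of the 60 members (30.0%), against 28.4% of 27438 nuclear protein-coding genes. It was in 14 of the 35 members that rose (40.0%) and in 2 of the 8 that fell (25.0%). A phenylpropanoid motif was in 5 of the 60 members (8.33%), against 6.12% of all genes. All 5 of those members, PRX9, PRX11, PRX20, PRX52 and PRX53, rose, where 63.6% of tested members and 35.0% of all genes tested rose. TGACG was in 11 of the 60 members (18.3%), against 18.6% of all genes, in 5 of the 35 that rose (14.3%) and in 0 of the 8 that fell. CACGTG was in 1 member (1.67%), which neither rose nor fell by the test, and in 6.49% of all genes. A match is a description of letters and not of binding.

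Upstream windows of PRX5 and PRX54 are shown as examples of rising members with TTGACC or TTGACT (capitals). PRX5 lies on the plus strand, chr1:4978672-4978921, and PRX54 on the minus strand, chr5:2081686-2081935 (RefSeq TAIR10.1, 5′ to 3′ along the gene).
PRX5: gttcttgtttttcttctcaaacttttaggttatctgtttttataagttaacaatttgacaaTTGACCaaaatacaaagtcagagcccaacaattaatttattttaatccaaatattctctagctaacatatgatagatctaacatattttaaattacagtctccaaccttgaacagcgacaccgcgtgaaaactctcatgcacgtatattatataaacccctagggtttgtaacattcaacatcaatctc
PRX54: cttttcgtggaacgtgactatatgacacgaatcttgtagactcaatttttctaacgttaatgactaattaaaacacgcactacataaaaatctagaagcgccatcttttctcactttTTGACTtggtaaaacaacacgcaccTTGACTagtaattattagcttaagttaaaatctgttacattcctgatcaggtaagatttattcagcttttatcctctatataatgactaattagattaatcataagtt

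Genes that work with the wall peroxidases were examined as lists. NADPH oxidases make the superoxide from which hydrogen peroxide forms outside the cell, and 7 of the 8 tested rose while 1 fell (35.0% and 36.8% of all genes tested). RBOHD (AT5G47910), the main oxidase of the defence burst, averaged 31.6 ± 1.25 RPKM on glutamate and 14.7 ± 1.82 RPKM on ammonium nitrate. The gene that fell was RBOHB, named after its values were seen, by 0.28 on the log2 scale. Its call was lost with equal totals per library, which undo the authors' scaling, and without any one of 4 of the libraries, glutamate replicates 1 and 2 and ammonium nitrate replicates 2 and 3.

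Enzymes of monolignol synthesis, which supply the phenolic substrates of lignin, rose in 16 of 17 cases, against 35.0% of all genes tested (median log2 fold change 0.96). PAL1 (AT2G37040), the entry enzyme, averaged 130 ± 5.72 RPKM on glutamate and 41.9 ± 1.06 RPKM on ammonium nitrate, a log2 fold change of 1.62 (adjusted p = 1.02e-07). The ligases 4CL1 and 4CL2 rose by log2 fold changes of 1.48 and 1.49. The one enzyme that fell was PAL3, named here after its values were seen, at 1.67 ± 0.108 RPKM on glutamate and 7.42 ± 0.169 RPKM on ammonium nitrate. The lignin regulators MYB63 and MYB15 rose by log2 fold changes of 1.68 and 3.16, and MYB58 rose to 3.07 ± 0.0749 RPKM on glutamate, against 0.442 ± 0.0349 RPKM on ammonium nitrate, while MYB4, a repressor of the pathway, had 25.9 ± 1.65 RPKM on glutamate and 24.3 ± 1.45 RPKM on ammonium nitrate and did not pass.

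Laccases, the other oxidases that polymerise lignin, went both ways, with 6 of 12 tested genes higher and 3 lower (median log2 fold change 0.19). The share of laccases called, 75%, was near the 71.8% of all genes. LAC8 fell by 0.86 on the log2 scale, and LAC5 and LAC13 rose by log2 fold changes of 0.79 and 0.76. Extensins, wall proteins that peroxidases join together, rose in 10 of 11 cases, against 35.0% of all genes tested (median log2 fold change 0.97), and in 8 to 11 cases when single libraries were left out. EXT3 (AT1G21310) averaged 1059 ± 78.7 RPKM on glutamate and 602 ± 61.4 RPKM on ammonium nitrate, and EXT4 (AT1G76930) averaged 525 ± 17.4 and 286 ± 14.8 RPKM in the same order. Extensin genes are repetitive, and only 1 could be tested once genes with multiply mapped reads were left out. That 1 was called higher. EXT3 and EXT4 were left out there, with shares of multiply mapped reads of 0.000101 and 0.000788.

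Ascorbate peroxidases and catalases break down hydrogen peroxide inside the cell. Of the genes listed with them here, whose activity was not examined gene by gene, 6 of 10 tested were lower, against 36.8% of all genes. CAT3, named after its values were seen, was higher, and the median log2 fold change of the list was -0.43. CAT2 (AT4G35090), the catalase of leaf peroxisomes, averaged 28.0 ± 2.17 RPKM on glutamate and 82.0 ± 4.80 RPKM on ammonium nitrate. The thylakoid enzyme TAPX (AT1G77490) averaged 18.0 ± 2.41 and 55.0 ± 1.61 RPKM in the same order. All 10 shoot markers fell in the same libraries, and their part in these values was not tested.

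**Figure D5:**
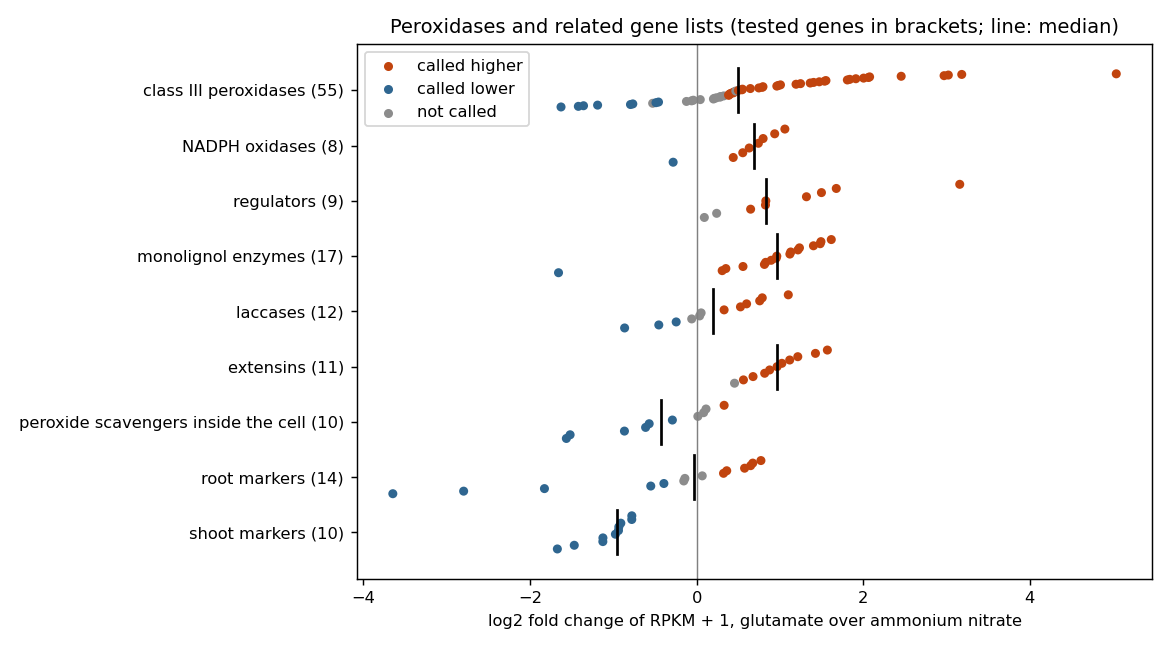
Log2 fold change of RPKM + 1, glutamate over ammonium nitrate, for each tested gene of the 55 peroxidases and 8 further lists, with the number tested in brackets and a black line at the median. Medians run from 0.97 for extensins to -0.96 for shoot markers.

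Of the 13 family genes that are not members, 8 could be tested, among them 3 that rose and 2 that fell (median log2 fold change 0.18). The share that rose, 37.5%, was near the 35.0% of all genes tested, while 63.6% of tested members rose. The share that fell was 25%, against 36.8% of all genes. The summed level of these 13 family genes was 315 to 335 RPKM on glutamate and 257 to 321 RPKM on ammonium nitrate. AT5G64110, which neighbours PRX71, had 19.8, 19.4 and 20.8 RPKM on glutamate, against 7.89, 10.9 and 9.13 RPKM on ammonium nitrate, without overlap. AT5G64100, the most abundant of them and named after its values were seen, averaged 229 ± 15.3 RPKM on glutamate and 225 ± 28.4 RPKM on ammonium nitrate and did not pass.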

How the data were processed

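RNA-seq of whole seedlings was analysed in 6 libraries, 3 on glutamate and 3 on ammonium nitrate, with groups and replicate numbers from the labels. The authors deposited RPKM values scaled between libraries by TMM, per the file's name, with gene length and a fraction of multiply mapped reads per gene. The submitters' processing notes list the build TAIR10 and the tool SAMtools. Aligner, counter and annotation version: not given in the sources used here.

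Multiplied by gene length, the deposited RPKM moved in steps of 1 read above an offset of 0.5 read. Whole reads, within 0.05 read, came out for 95.9% to 96.4% of genes. Values were taken as log2(RPKM + 1), genes averaging 1 RPKM or more were kept, and a two-sided moderated test with a mean-variance trend was fitted (limma 3.58.1, R 4.3.3). The test was run on simulated data first. Replicates differed by more than counting noise.

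Members and lists were chosen with earlier results of these data known. All members could be named, and from each other list at most 3 genes of smallest p plus all regulators. Sequences were read from RefSeq TAIR10.1, whose nuclear chromosomes carry the same sequence as TAIR10. The deposited gene lengths equal a RefSeq transcript for 4 of 60 members, so annotated starts may differ from the authors'. Identity came from global (end-to-end) alignment. Protein sequences were not used here. Alternatives were other pseudocounts, filters and scaling, limma-voom on the recovered reads, a replicate block, and leaving out each library or genes with multiply mapped reads.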

Additional observations from a re-analysis of the deposited data

How the results depend on the processing

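Across 14 alternatives the members called higher numbered 30 to 37 and those called lower 8 or 9, against 35 and 8. Only 48 members were tested with a mean of at least 5 RPKM or without genes with multiply mapped reads. In both of those alternatives no tested member lost its call. Leaving out single libraries gave 34 to 37 and 8 or 9. Of the 55 tested members, 44 kept their direction and side of the threshold in every alternative that tested them, and none reversed a call. The 11 that did not were PRX1, PRX7, PRX24, PRX25, PRX26, PRX27, PRX32, PRX35, PRX56, PRX57 and PRX62, all with log2 fold changes under 1 in size. The summed level was 1.46 times as high on glutamate, 1.57 times with equal totals per library, 1.25 times without genes with multiply mapped reads (which leaves out PRX34 and PRX50) and 1.425 to 1.504 times without single libraries. Equal totals moved the median of all genes by 0.0995 on the log2 scale. Pairs without overlap numbered 8, and 8 or 9 without single libraries. Called genes over the other lists were 56 higher and 28 lower, and 52 to 57 and 26 to 28 without single libraries.

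Deviations of same-numbered libraries correlated at 0.105, 0.0481 and -0.0125. With 3 libraries per group, such weak values cannot decide whether same-numbered libraries were paired. With the replicate number as a block 35 members were higher and 9 lower, PRX32 being added (adjusted p = 0.0441). Glutamate replicates 1 and 2 correlated best with their own number, while glutamate replicate 3 did so with ammonium nitrate replicate 2 (0.134). Of the ammonium nitrate libraries, only replicate 1 correlated best with its own number. Depth limits what can be said of PRX6, PRX14, PRX36 and PRX41, where reads were too few to show a difference.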
